A study of Caenorhabditis elegans with 15 samples.

Results

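The glutathione S-transferase (GST) genes were taken as every gene in the deposited tables whose name begins with gst-, gsto- or gstk- and ends in a number. The tables hold 49 such genes among 42048, and the 40 with a mean RPKM of at least 1 over the 15 libraries are reported. RPKM is a read number scaled by the length of the gene in kilobases and by the depth of the library, so levels of different genes are compared per length. The rule uses only the name and the mean over all libraries, not a difference between groups. The members nearest above the threshold were gst-23 at a mean of 1.12 RPKM and gst-34 at 1.26 RPKM, and the nearest below it were gst-32 at 0.736 RPKM and gst-44 at 0.722 RPKM. The 9 genes below the threshold were gst-32, gst-44, gst-14, gsto-2, gst-8, gst-18, gst-25, gst-17 and gst-37, of which gst-25, gst-17 and gst-37 had at most 5, 6 and 3 reads in a library.

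Glutathione S-transferases join the tripeptide glutathione to reactive, electrophilic compounds, which makes these compounds soluble and marks them for export, and some members also bind or isomerise other small molecules. The nematode family is large and most of its genes are named gst-, while gsto- genes encode the omega class and gstk- genes the kappa class, which in other animals sits in mitochondria and peroxisomes. In C. elegans many members are expressed in the intestine, and several, with gst-4 as the usual reporter, are targets of the stress-response transcription factor SKN-1.

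RNA of whole C. elegans on adult day 1 was sequenced in 15 libraries, 3 in each of 5 groups. The first group was strain TU3401 with no further genotype given, fed bacteria with the control RNAi titled luc. The other 4 groups were strain SHU47 with the genotype glp-1, fed luc RNAi or RNAi against hlh-30, atg-2 and atg-18, and the labels call these 3 knockdowns neuronal. TU3401 is known as a sid-1 mutant in which sid-1, a channel for uptake of RNA fed to the worm, is restored in neurons under the unc-119 promoter, and glp-1 loss-of-function worms lack a germline. The labels give upkeep at 20 °C, and no temperature shift. The sources used here give neither the glp-1 allele, nor the number of worms in a library, nor whether a group's libraries were grown as separate cultures. The p-values therefore cover no more than the spread between the sequenced libraries, part of which may be technical. Depth recovered from the RPKM values was 17496624 to 25599148 reads per library.

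The RNAi targets were read first, as a check of the labels. In the 3 libraries labelled hlh-30 RNAi, hlh-30 stood at 126, 293 and 328 RPKM, against 54.6, 44.5 and 50.9 RPKM in glp-1 worms on luc, so it was not lower. The libraries labelled atg-2 RNAi held 43.1, 39.4 and 38.01 RPKM of atg-2 against 34.7, 26.6 and 28.9 RPKM on luc. Those labelled atg-18 RNAi held 49.1, 81.3 and 116 RPKM of atg-18 against 78.5, 68.8 and 70.1 RPKM on luc. No target was therefore lower in all 3 of its libraries, and the directions given below are those of libraries labelled with an RNAi, not of a measured loss of the target. The summed level of 28 germline and oocyte markers was 13303 to 13681 RPKM in TU3401 and 25.6 to 335 RPKM in the 12 glp-1 libraries. Within the glp-1 groups the libraries numbered 1 on luc, hlh-30 and atg-2 RNAi held 139, 221 and 335 RPKM of it, and the other 9 held 25.6 to 30.6 RPKM. In the 2 luc groups 24 intestine markers summed to 14668 to 16252 RPKM in TU3401 and 44753 to 47735 RPKM in glp-1 worms, 20 hypodermis markers to 579 to 739 and 1781 to 2204 RPKM, 23 muscle genes to 4170 to 4871 and 12953 to 15732 RPKM, and 28 pan-neuronal genes to 949 to 1041 and 1246 to 1416 RPKM. Sperm markers, 32 genes, summed to 11.4 to 17.8 RPKM in TU3401 and 14.8 to 19.6 RPKM in glp-1 luc. By limma 28 of 28 germline markers were lower in glp-1 luc than in TU3401, while 21 of 24 intestine markers, 21 of 23 muscle genes and 19 of 28 neuronal genes were higher and 2, 2 and 5 of them lower. Of 15 tested hypodermis markers 4 were higher and 10 lower, with a median log2 difference of -1.50, although the sum of the list was larger. Of the listed genes in the tables, 0 were at 0 in all 15 libraries. In whole worms, fewer cells of a type and less RNA per cell cannot be told apart, and the part of these changes of tissue in the results below was not tested beyond the rescaling given with them.

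The order of levels within the family differed between the strains. In TU3401 on luc, gst-1 led with 498, 489 and 487 RPKM, and gst-7 followed with 271, 253 and 281 RPKM. Every other member had a mean of less than 70 RPKM there: gst-13 stood at 67.8 ± 8.67 RPKM, gst-20 at 63.5 ± 16.2 RPKM and gst-4 at 56.3 ± 5.52 RPKM (mean ± SD, n = 3), whose ranges over the libraries overlapped. In glp-1 worms on luc, gst-10 led with 468, 597 and 668 RPKM. It was followed by gst-4 at 303 ± 30.7, gst-1 at 252 ± 2.96, gst-13 at 225 ± 34.4, gst-42 at 198 ± 4.33 and gstk-1 at 188 ± 7.18 RPKM (mean ± SD, n = 3). In that order gst-10 lay above gst-4 in every library and gst-4 above gst-1, while the libraries of gst-1 and gst-13 overlapped. The lowest library of gst-13, at 204 RPKM, lay just above the highest of gst-42, at 203 RPKM. The ranges of gst-42, at 195 to 203 RPKM, and gstk-1, at 181 to 195 RPKM, overlapped at their edges. Differences between genes were not tested.

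**Figure D1:**
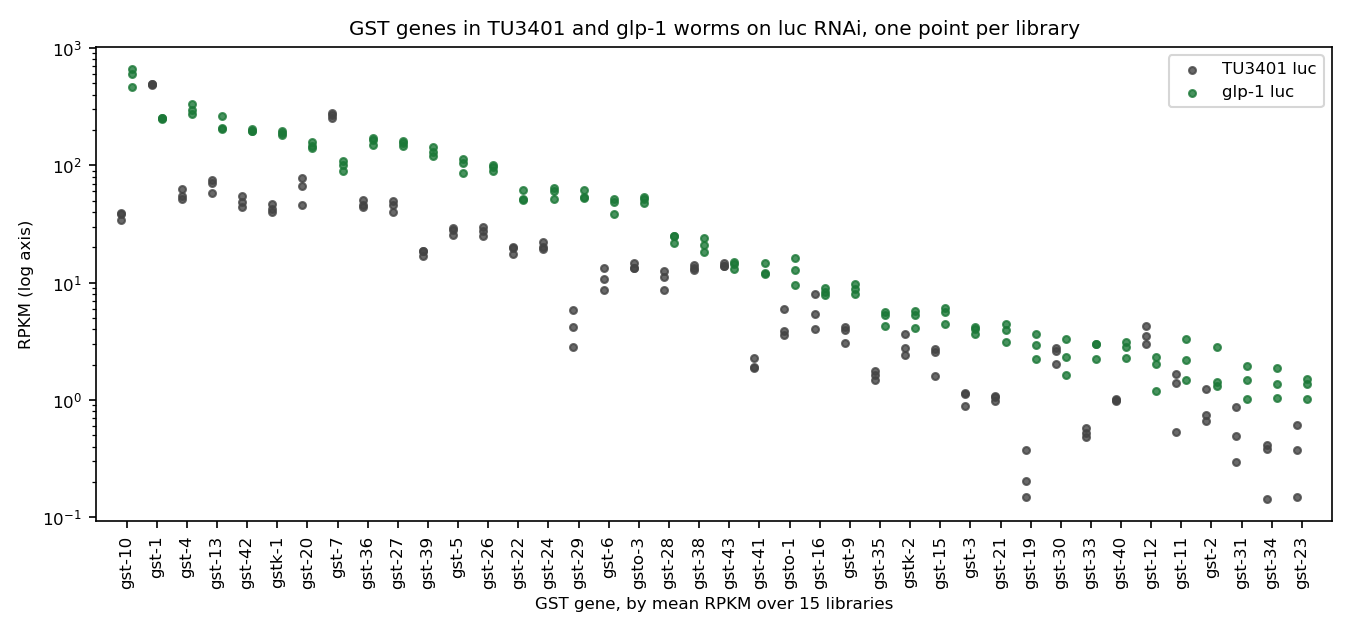
RPKM (log axis) of the 40 GST genes with a mean of at least 1 RPKM, ordered by their mean over 15 libraries, in the 3 TU3401 luc (grey) and 3 glp-1 luc (green) libraries, 1 point per library. Green points lie above grey for most genes, and below them for gst-1, gst-7 and gst-12.

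Comparing glp-1 worms with TU3401, both on luc, addresses how RNA levels differ in worms without a germline. The groups also differ in strain, SHU47 and TU3401, and effects of strain and of the glp-1 genotype cannot be told apart here. Most of the family was higher in glp-1 worms: of 40 genes 38 were tested, 31 rose, 3 fell and 4 were not called (limma, Benjamini-Hochberg adjusted p under 0.05). In this comparison 89.7% of all 13569 genes tested were called, 41.4% as higher and 48.3% as lower. A call in itself therefore says little. The members had more rises than that background, as had the intestine markers (21 of 24) and the muscle genes (21 of 23). The median log2 difference was 1.28 for the members and -0.19 for all genes tested. It was 1.49 for the intestine markers, 1.56 for the muscle genes, 0.86 for the pan-neuronal genes and -1.50 for the hypodermis markers. The rises are thus not particular to the family. Without overlap between the libraries of the groups 31 members were higher and 3 lower, beside 41.6% and 48.6% of all genes. These 31 include gst-2, which was not called, and lack gst-16, which was called with overlapping libraries. The 7 members gst-19, gst-33, gst-40, gst-2, gst-31, gst-34 and gst-23 had a TU3401 mean under 1 RPKM and reached the threshold through the glp-1 libraries, so their direction here was favoured by the filter. Among the 33 tested genes above 1 RPKM in TU3401, 27 rose and 3 fell. The matching share of all genes above 1 RPKM in TU3401 was not counted, so this count has no background beside it.

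The largest difference was that of gst-10, a transferase known to conjugate hydroxynonenal, a product of lipid peroxidation. It held 34.1, 38.2 and 39.5 RPKM in TU3401, on 511 to 640 reads, and 468, 597 and 668 RPKM in glp-1 luc. The groups lay far apart, and the ratio of the means was 15.5. Its log2 difference was 3.91 ± 0.13 (SE; limma adjusted p = 1.14e-07, n = 3 against 3). Other genes linked to hydroxynonenal conjugation in the worm rose as well: gst-5 from 27.6 ± 1.77 to 101 ± 13.8 RPKM, gst-6 from 10.9 ± 2.25 to 46.3 ± 6.80 RPKM and gst-24 from 20.5 ± 1.52 to 58.4 ± 6.19 RPKM (mean ± SD, n = 3). Their log2 differences were 1.83, 2.00 and 1.46.

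The SKN-1 reporter gene gst-4 held 51.4, 62.3 and 55.2 RPKM in TU3401 and 336, 275 and 297 RPKM in glp-1 luc. Every glp-1 library was above every TU3401 library, and the log2 difference was 2.41 ± 0.10 (SE; limma adjusted p = 2.65e-07, n = 3 against 3). A further 3 genes named only as members of the family rose by more than 2 on the log2 scale. For gst-29 the libraries held 4.16, 2.81 and 5.89 RPKM in TU3401 and 52.7, 53.2 and 61.3 RPKM in glp-1 luc, a log2 difference of 3.46 ± 0.20. For gst-39 they held 18.4, 17.0 and 18.6 RPKM and then 120, 130 and 143 RPKM, a log2 difference of 2.79 ± 0.08. The low-level gene gst-41, with 28 to 31 reads per TU3401 library, went from 1.87, 2.28 and 1.91 RPKM to 11.8, 14.7 and 12.1 RPKM, a log2 difference of 2.20 ± 0.12 on the log2(RPKM + 1) scale, which understates changes of low genes. None of these 3 genes had overlapping libraries. In all 25 members rose by at least 1 on the log2 scale, and 6 by at least 2. The share of all genes that rose by these sizes was not counted. Among the 25, gst-19 and gst-33 had a TU3401 mean under 1 RPKM.

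Members of classes with known separate roles were among those that rose. The kappa-class gene gstk-1 held 40.3, 47.0 and 42.4 RPKM in TU3401 and 181, 195 and 189 RPKM in glp-1 luc (ratio of the means 4.36), while the second kappa gene, gstk-2, stood at 2.94 ± 0.62 and 5.04 ± 0.84 RPKM (0.62 ± 0.16). The zeta-class gene gst-42, which encodes maleylacetoacetate isomerase of tyrosine breakdown, held 44.4, 54.5 and 48.9 RPKM and then 196, 203 and 195 RPKM (1.99 ± 0.08). Of the omega class, gsto-3 went from 13.8 ± 0.87 to 51.2 ± 2.92 RPKM (1.82 ± 0.08). The omega gene gsto-1, known for intestinal expression under the factor ELT-2, went from 4.48 ± 1.33 to 12.9 ± 3.36 RPKM (1.34 ± 0.23). All values in this paragraph are means ± SD over 3 libraries or log2 differences ± SE with n = 3 against 3, and each of these 5 genes passed the test.

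The 3 genes that fell include the leading pair of TU3401. The pi-class gene gst-1, known in the worm for protecting dopamine neurons against manganese, held 498, 489 and 487 RPKM in TU3401 and 253, 249 and 255 RPKM in glp-1 luc, a log2 difference of -0.96 ± 0.04 (SE; limma adjusted p = 4.54e-07, n = 3 against 3). For gst-7 the libraries held 271, 253 and 281 RPKM and then 89.9, 101 and 108 RPKM, a difference of -1.42 ± 0.08. The third, gst-12, was low throughout, with 3.02, 4.30 and 3.53 RPKM in TU3401 and 2.04, 1.18 and 2.31 RPKM in glp-1 luc (-0.71 ± 0.19, adjusted p = 0.00983 by limma). The groups did not overlap for any of the 3. Below the threshold, gst-44 held 2.21, 1.83 and 2.30 RPKM in TU3401, on 30 to 45 reads, and 0.324, 0.209 and 0.0560 RPKM in glp-1 luc, on 1 to 5 reads. The genes not called were gst-43, at 14.2 ± 0.52 and 14.2 ± 1.02 RPKM, gst-30 at 2.49 ± 0.40 and 2.43 ± 0.86 RPKM, gst-11 at 1.20 ± 0.59 and 2.32 ± 0.93 RPKM, and gst-2 at 0.881 ± 0.31 and 1.86 ± 0.84 RPKM.

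Most other members lay between these extremes. Above 50 RPKM in glp-1 luc, gst-13, gst-20, gst-22, gst-26, gst-27 and gst-36 rose with log2 differences of 1.24 for gst-20 to 1.76 for gst-26. Under 30 RPKM there, the smallest called rises on the log2(RPKM + 1) scale were those of gst-16 at 0.51 ± 0.20 (adjusted p = 0.0482 by limma), gst-38 at 0.60 ± 0.11, gstk-2 at 0.62 ± 0.16 and gst-31 at 0.68 ± 0.21. That scale understates the change of gst-31, at means of 0.552 RPKM in TU3401 and 1.48 RPKM in glp-1 luc. The ratio of its means was 2.68, so it was not among the weakest rises by ratio. The call of gst-16 held in 1 of 6 fits that left out 1 library. The 2 members that were reported but not tested, gst-23 and gst-34, rested on 2 to 9 reads per TU3401 library and 12 to 23 reads per glp-1 luc library. In the authors' deposited table of this comparison 35 of the 40 members were higher and 2 lower at a false discovery rate under 0.05, as were 44.7% and 43.6% of the 13383 genes with a mean of at least 1 RPKM over all libraries. Of these calls 33 were shared with limma in the same direction, and gst-12 was the gene called by limma alone. The authors' 35 include the 7 members with a TU3401 mean under 1 RPKM.

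How many members count as higher depends on what is held equal between the strains. RPKM divides by all reads of a library, and the TU3401 libraries hold germline RNA that the glp-1 libraries largely lack. When libraries were rescaled to equal sums of the neuronal and muscle genes, the median of all genes moved by -1.26 on the log2 scale, and of 39 members tested 15 were higher and 8 lower, with a median of 0.11, beside 12.2% and 63.5% of all genes. The 15 genes higher on both scales were gst-10, gst-29, gst-39, gst-4, gst-41, gstk-1, gst-6, gst-42, gst-5, gsto-3, gst-26, gst-36, gst-27, gst-19 and gst-33. Of these gst-19 and gst-33 had a TU3401 mean under 1 RPKM, so the filter favoured their direction. For gst-10 the rescaled log2 difference was 2.44, for gst-29 2.16 and for gst-4 0.93. The 3 genes that were lower on the RPKM scale were lower on this one too, gst-7 by -2.91 and gst-1 by -2.44, and gst-16, gst-38 and gstk-2 went from higher to lower, at -0.82, -0.82 and -0.59. The other 13 genes that rose in RPKM were not called on this scale, among them gst-13 at 0.24, gst-22 at 0.020, gst-24 at 0.018, gsto-1 at 0.036 and gst-20 at -0.24. The muscle genes carry most of that sum and were themselves higher in RPKM. Rescaled on the neuronal genes alone, an alternative chosen after seeing the data, 28 members were higher and 4 lower, the fourth being gst-43, beside 35.8% and 52.4% of all genes.

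**Figure D2:**
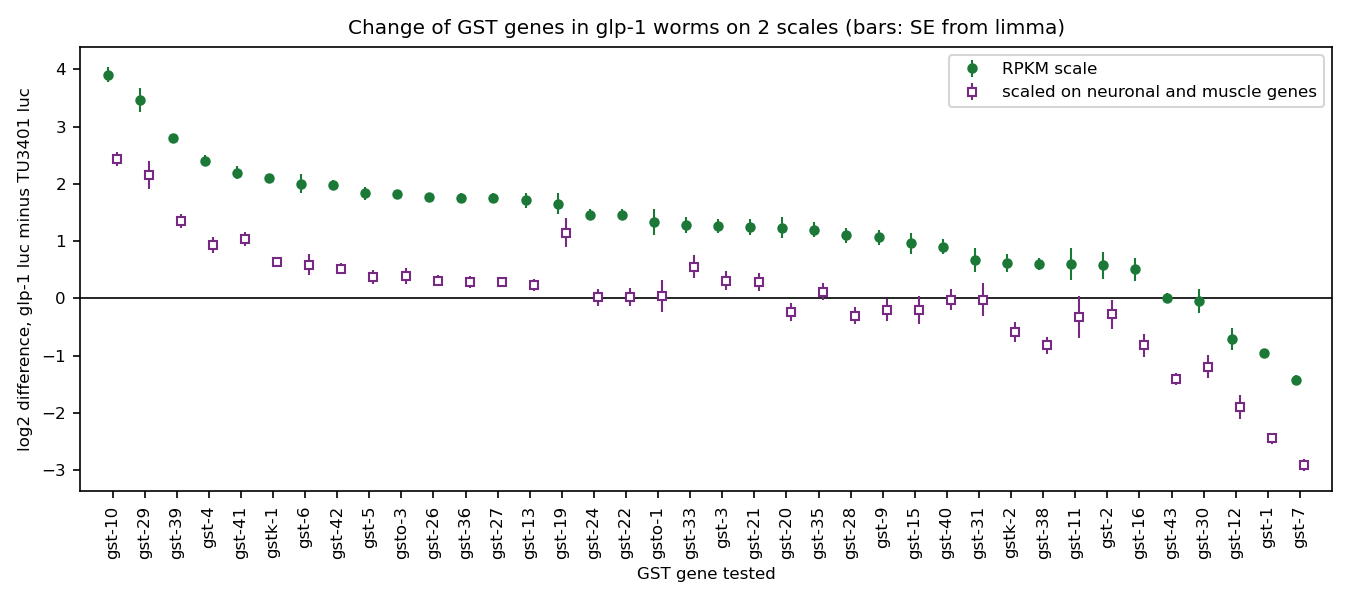
Log2 difference of log2(RPKM + 1) between glp-1 luc and TU3401 luc for the 38 tested GST genes, ordered by the difference on the RPKM scale; filled green points use RPKM as deposited, open purple squares use values rescaled to equal sums of neuronal and muscle genes, and bars are the SE from limma. On the RPKM scale gst-10 stands highest at 3.91 and gst-7 lowest at -1.42, and on the rescaled axis gst-10 is at 2.44 and gst-7 at -2.91.

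As a sum over all 49 genes the family stood at 1389 ± 41.1 RPKM in TU3401 luc and 3050 ± 140 RPKM in glp-1 luc (mean ± SD, n = 3), a ratio of 2.20. Its share of all RPKM was 0.140% and 0.294%. Within the sum, gst-1 made up 35.4% in TU3401 and 8.29% in glp-1 luc, gst-7 19.3% and 3.26%, and gst-10 2.68% and 18.9%. The leading gene was gst-1 in each of the 3 TU3401 libraries and gst-10 in each of the 12 glp-1 libraries. In the other glp-1 groups the sum was 3362 ± 75.9 RPKM in libraries labelled hlh-30 RNAi, 3071 ± 164 RPKM for atg-2 RNAi and 3162 ± 164 RPKM for atg-18 RNAi. The range over the libraries labelled atg-2 and atg-18 overlapped that on luc, while the lowest hlh-30 library was above the highest on luc.

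**Figure D3:**
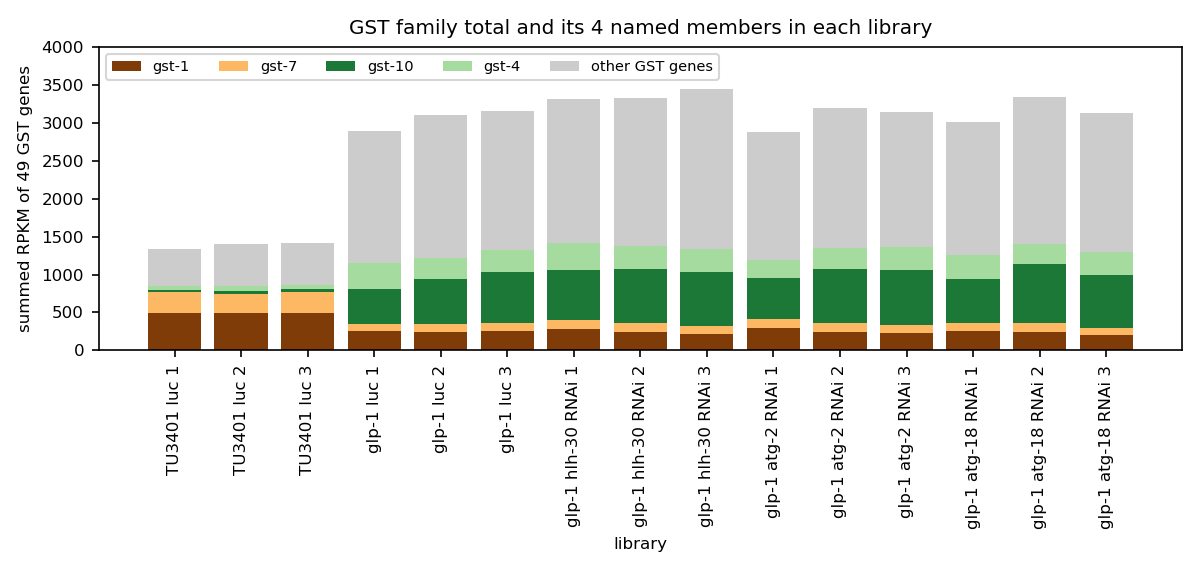
Summed RPKM of all 49 GST genes in each of the 15 libraries, stacked by gst-1, gst-7, gst-10, gst-4 and the remaining genes. The TU3401 bars, with a mean of 1389 RPKM, consist mainly of gst-1 and gst-7, and the glp-1 luc bars, with a mean of 3050 RPKM, hold a large gst-10 segment.

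Members that lie next to each other in the genome did not all move alike. In the WBcel235 annotation, used only for the order of genes, 24 of the 49 genes fall into 4 runs in which at most 1 other coding gene separates neighbours. The run of gst-26, gst-27, gst-28, gst-29, gst-39, gst-31, gst-32, gst-34 and gst-35 had 7 tested members, all higher in glp-1 luc, with log2 differences from 0.68 to 3.46. Of these gst-31, at 0.68, had a TU3401 mean under 1 RPKM, where the log2(RPKM + 1) scale understates changes. The run of gst-20, gst-24, gst-15, gst-14, gst-12, gst-16, gst-19, gst-17 and gst-18 had 6, of which 5 rose and gst-12 fell. Among the 5, gst-19 also had a TU3401 mean under 1 RPKM. In the run of gst-6, gst-7 and gst-8, gst-6 rose by 2.00 and gst-7 fell by 1.42 on the log2 scale. In the run of gst-3, gst-2 and gst-4, gst-3 rose by 1.27 and gst-4 by 2.41, and gst-2 at 0.58 was not called. Beside these counts, 31 of the 38 tested members of the whole family rose and 3 fell. Of all genes tested 41.4% were called as higher and 48.3% as lower. Whether a run differs from the rest of the family was not tested. Levels within a run ranged widely, from a mean of 0.0984 to 151.95 RPKM over the 15 libraries in the run that starts with gst-20. Neighbouring members are often close copies, and the sources used here do not say how reads that match several of them were assigned, so the split between such copies is uncertain.

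Exons of 8 reported members overlap another gene, and whether strand was used in counting is not given. The partners moved in either direction. Next to gst-5 lies nos-1, which went from 32.6 to 0.194 RPKM, and next to gsto-1 lies kle-2, which went from 80.4 to 3.03 RPKM, both opposite to the GST gene. The partners that were higher in glp-1 luc were col-103, which overlaps gst-40, at 231 and 1981 RPKM, dhs-12, which overlaps gst-4, at 66.2 and 100.1 RPKM, F21H7.12, which overlaps gst-22, at 0.349 and 4.99 RPKM, and scav-5, which overlaps gst-36, at 4.28 and 13.5 RPKM. The partner of gstk-2, elo-3, stood at 140 and 109 RPKM, and that of gst-2, K08F4.15, was listed at 0 in all 15 libraries. For gst-40, at 1.00 and 2.75 RPKM and its far more abundant partner, and for gst-4 and dhs-12 on the same strand, reads of the partner cannot be told apart from those of the member.

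**Figure D4:**
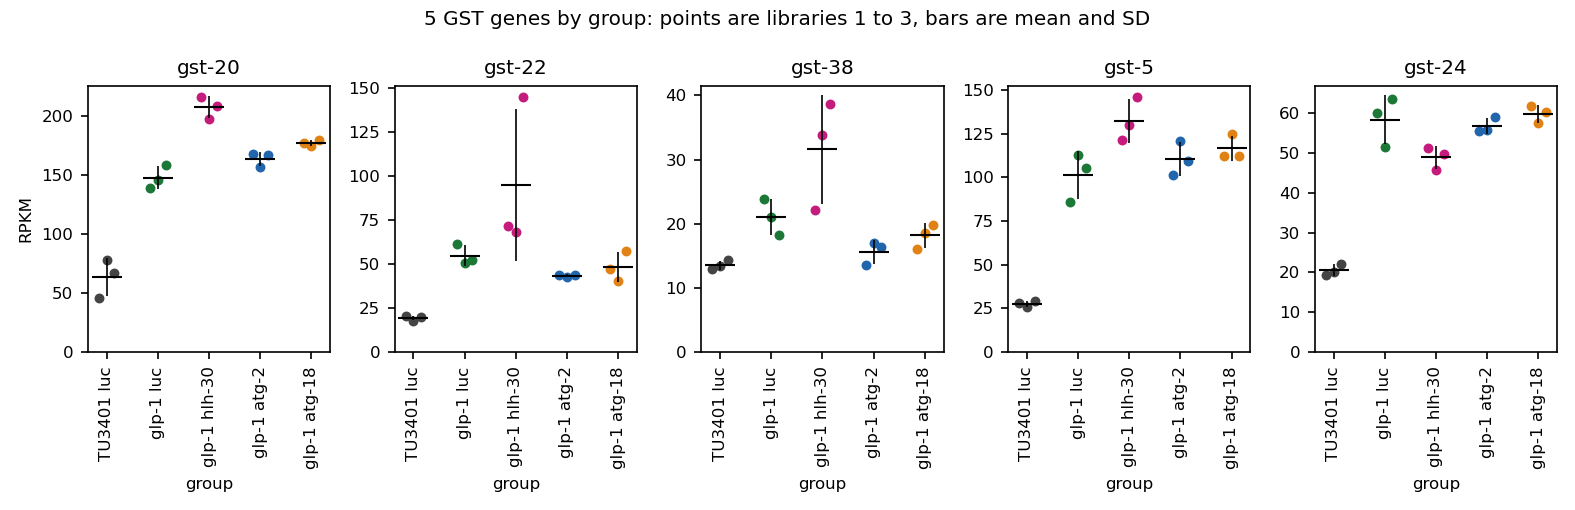
RPKM of gst-20, gst-22, gst-38, gst-5 and gst-24 in the 5 groups, with points for the 3 libraries and bars for mean and SD. In libraries labelled hlh-30 RNAi gst-20 lies at 198 to 216 RPKM, above the other glp-1 groups, and 1 library of gst-22 stands at 145 RPKM.

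In glp-1 worms the 3 RNAi groups were each compared with luc, which asks how knocking down an autophagy regulator (hlh-30, the worm TFEB) or an autophagy gene (atg-2, atg-18) is accompanied by changes in the family. No member was called in any of the 3 comparisons (limma, adjusted p under 0.05), and these comparisons share the luc libraries. Among all genes tested 0.088% were called for hlh-30, 0.0% for atg-2 and 0.0% for atg-18. At an unadjusted p under 0.05, 7 members passed for hlh-30 (9.5% of all genes did), 4 for atg-2 (7.66%) and 2 for atg-18 (6.83%). With the replicate number as a block the last 2 counts were 8 and 6, beside 13.8% and 14.2% of all genes. Of 40 members, 38, 40 and 40 had a 95% interval of the difference inside 1 on the log2 scale either way, the exceptions being gst-22 and gst-38 for hlh-30. Changes of at least that size on the log2(RPKM + 1) scale were thus outside the intervals of those members. That scale understates changes of low genes. For members such as gst-34 and gst-23, at means of 1.42 and 1.30 RPKM on luc, the intervals therefore leave room for larger changes in RPKM.

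The member with the smallest p was gst-20 in libraries labelled hlh-30 RNAi. It held 216, 198 and 209 RPKM there and 139, 146 and 158 RPKM on luc. The groups did not overlap, and the log2 difference was 0.49 ± 0.07 with an adjusted p of 0.0898 by limma (n = 3 against 3). In the authors' deposited table it is called at a false discovery rate of 0.0127 and is the only one of the 40 members called there for any RNAi, in a comparison where 0.172% of genes with a mean of at least 1 RPKM were called as higher. The same gene held 168, 157 and 167 RPKM for atg-2 RNAi and 177, 174 and 180 RPKM for atg-18 RNAi, with differences from luc of 0.15 ± 0.06 (adjusted p = 0.655 by limma) and 0.26 ± 0.06 (adjusted p = 0.673).

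Among the other members, gst-22 held 71.7, 68.2 and 145 RPKM in libraries labelled hlh-30 RNAi and 61.5, 50.6 and 52.1 RPKM on luc. The third library stood far above the other 2, and the difference of 0.70 ± 0.27 (adjusted p = 0.500 by limma) was 0.35 without it. For gst-38 the values were 22.2, 33.9 and 38.7 RPKM against 23.9, 21.1 and 18.2 RPKM, with overlapping groups (0.54 ± 0.20, adjusted p = 0.489). In the libraries labelled hlh-30 RNAi the first library was lowest both for gst-38 and for hlh-30 itself. There hlh-30 stood at 126, 293 and 328 RPKM. The first library was also lowest for gst-38 in TU3401, at 12.9, 13.3 and 14.3 RPKM. It was lowest too under atg-2 RNAi (13.5, 17.0 and 16.3 RPKM) and under atg-18 RNAi (16.1, 18.6 and 19.8 RPKM). On luc in glp-1 worms it was the highest. In none of these other groups was hlh-30 lowest in the first library. Whether gst-38 follows hlh-30 was not tested. For hlh-30 RNAi, gst-16, gst-20, gst-22, gst-5 and gstk-1 were higher than on luc without overlap, and gst-24 and gsto-3 lower. Of all genes tested 6.28% were higher and 8.24% lower in this way. For gst-5 the values were 122, 130 and 146 against 85.9, 112.6 and 105 RPKM, and for gst-24 51.2, 45.7 and 49.8 against 60.1, 51.5 and 63.6 RPKM. For atg-2 RNAi gst-22, gst-36 and gst-38 were lower without overlap (8.28% of all genes were), and for atg-18 RNAi gst-20 and gst-3 were higher (5.58% were). The genes that led the difference between strains had libraries that overlapped those on luc: gst-10 stood at 691 ± 32.2, 654 ± 103 and 686 ± 98.1 RPKM for hlh-30, atg-2 and atg-18 against 578 ± 101 RPKM on luc, and gst-4 at 325 ± 28.7, 273 ± 36.3 and 297 ± 23.5 against 303 ± 30.7 RPKM (mean ± SD, n = 3).

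Direct contrasts between the RNAi groups, fitted over the 12 glp-1 libraries by group only, separated a few members. Against atg-2 RNAi, gst-20 and gst-38 were higher in libraries labelled hlh-30 RNAi, 2 of 40 members where 1.01% of all genes were called and 0.578% as higher. The difference of gst-20 was 0.34 ± 0.06 (limma adjusted p = 0.0219) and that of gst-38, at 22.2, 33.9 and 38.7 against 13.5, 17.0 and 16.3 RPKM, was 0.94 ± 0.18 (adjusted p = 0.0366). Neither gene overlapped between the groups. Each call held in 1 of 6 fits that left out 1 library, with adjusted p of 0.0337 to 0.0888 for gst-20 and 0.00817 to 0.158 for gst-38. Without all libraries numbered 1, of which those on luc, hlh-30 and atg-2 RNAi hold the residual germline RNA, gst-38 kept its call (adjusted p = 0.0216) and gst-20 did not (0.103). Rescaled on neuronal and muscle genes neither was called (adjusted p = 0.583 for gst-20 and 0.0529 for gst-38), nor was either on neuronal genes alone (0.112 and 0.0527). The gene gst-22 stood at 1.02 ± 0.24 and was not called (adjusted p = 0.0769), and without the third hlh-30 library its difference was 0.68.

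Same-numbered libraries deviated together in these contrasts, although the labels do not say what the numbers stand for. With the replicate number as a block gst-20, gst-22 and gst-38 were all called against atg-2 RNAi (limma adjusted p = 0.00495, 0.0216 and 0.0140), when 3.09% of all genes were called as higher. Against atg-18 RNAi no member was called without the block, where 1.02% of all genes were, with gst-38 at 0.74 ± 0.18 (adjusted p = 0.0990), gst-22 at 0.89 ± 0.24 (0.139) and gst-20 at 0.23 ± 0.06 (0.112). With the block 3 were called as higher and 3 as lower, beside 2.01% and 2.05% of all genes: gst-20, gst-22 and gst-38 were higher (adjusted p = 0.0291, 0.0451 and 0.0439), and gst-24, gst-9 and gsto-3 lower, at -0.29, -0.57 and -0.19 on the log2 scale (adjusted p = 0.0218, 0.0341 and 0.0255). The libraries of gst-9 overlapped, with 7.49, 4.88 and 8.01 RPKM for hlh-30 and 11.9, 7.47 and 12.6 RPKM for atg-18. Both contrasts share the libraries labelled hlh-30 RNAi, so the pair of results is not independent. Between atg-2 and atg-18 RNAi no member was called with or without the block (0.0161% and 0.00803% of all genes were), and 0 members passed an unadjusted p under 0.05 without it, as 3.14% of all genes did, and 3 with it, as 8.37% did.

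The rest of the glutathione pathway went in both directions in glp-1 worms. Of 8 genes of glutathione synthesis and cysteine supply, 4 were higher and 3 lower than in TU3401, shares near the 41.4% and 48.3% of all genes. Those higher were led by cth-1 at 2.00 and cth-2 at 1.94, cystathionine gamma-lyases that make cysteine, and cbl-1 at 1.34 (log2 differences, limma). Those lower were gss-1, glutathione synthetase, at -1.09, E01A2.1, the modifier subunit of glutamate-cysteine ligase, at -0.997, and gsr-1, glutathione reductase, at -0.70. The catalytic subunit gcs-1, named after its value was seen, went from 79.3, 74.5 and 79.6 RPKM to 104.3, 104.5 and 102 RPKM (0.41). The summed level of the list was 741 to 795 RPKM in TU3401 and 1594 to 1656 RPKM in glp-1 luc.

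Glutathione peroxidases, which use glutathione to reduce peroxides, had 6 of 8 genes higher and 2 lower, with gpx-7 at 2.06, gpx-5 at 1.89 and gpx-2 at 1.36, and gpx-8 at -1.40 and gpx-4 at -0.48. In the thioredoxin, glutaredoxin and peroxiredoxin system 2 of 15 were higher, msra-1 at 0.24 and prdx-2 at 0.19, and 10 lower, led by glrx-21 at -1.69, glrx-22 at -1.44 and glrx-3 at -1.29. Of 8 mrp genes, which encode transporters of the kind that export glutathione conjugates, 5 were higher, led by mrp-6 at 1.61, mrp-3 at 1.53 and mrp-5 at 1.45, and 3 lower, mrp-4 at -2.84, mrp-7 at -2.40 and mrp-8 at -0.52. The median log2 differences of these 3 lists were 1.14, -0.35 and 1.06, beside 1.28 for the GST genes, 0.20 for glutathione synthesis and -0.19 for all genes tested. Of all genes tested 41.4% were called as higher and 48.3% as lower. Rescaled on neuronal and muscle genes the medians were -0.31, -1.84 and -0.24, and -1.25 for glutathione synthesis, beside 0.11 for the GST genes. On those values cbl-1, gcs-1, gpx-2, msra-1, prdx-2 and mrp-5 stood below 0, whereas cth-1, cth-2, gpx-7, gpx-5, mrp-6 and mrp-3 stayed above it at 0.31 to 0.75.

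The regulators also went in both directions, in a comparison where 41.4% of all genes were called as higher and 48.3% as lower. The gene skn-1 itself went from 126, 114 and 116 RPKM in TU3401 to 72.8, 65.3 and 54.3 RPKM in glp-1 luc (log2 difference -0.89), which says nothing of SKN-1 protein or its activity. Of 13 tested genes of the SKN-1 pathway 4 were higher, with elt-3 at 1.26, sgk-1 at 1.16 and sek-1 at 0.71, and 7 lower, with eor-1 at -2.53, mpk-1 at -1.97 and brap-2 at -1.60, and rescaled on neuronal and muscle genes all 3 of the former stood below 0. Of 9 tested SKN-1 targets outside the family 7 were higher, led by nit-1 at 2.29, ugt-11 at 2.19 and ctl-2 at 2.16, and aip-1 at -1.47 and trxr-1 at -0.68 were lower, with a median of 1.12 and, rescaled on neuronal and muscle genes, of -0.42. Among 11 DAF-16 and PQM-1 related factors 5 were higher, with nhr-80 at 2.01, pqm-1 at 1.73 and daf-12 at 1.73, and 3 lower, hsf-1 at -2.50, tcer-1 at -2.07 and mxl-2 at -1.76, with a median of 0.04. Rescaled on neuronal and muscle genes 2 of the 11 were higher and 6 lower, with a median of -1.43, beside 12.2% and 63.5% of all genes. In the RNAi comparisons with luc no gene of these 7 lists was called. In the direct contrasts gpx-5 and sdz-8, a SKN-1 target, were higher in libraries labelled hlh-30 RNAi than for atg-2 RNAi (0.26 and 0.36) and atg-18 RNAi (0.31 and 0.43), and hlh-30 itself was higher by 2.14 and 2.21. Rescaled on neuronal and muscle genes gpx-5 and sdz-8 were not called in either contrast (limma adjusted p = 0.785 and 0.342 against atg-2, 0.558 and 0.165 against atg-18), while hlh-30 was (0.00850 and 0.00502).

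Some members followed the library number across groups, as a share of all genes did. In 5 of 5 groups gst-10, gst-13 and gst-27, 3 of 40 members, were lowest in the library numbered 1, as 2.22% of 13383 genes were. Highest in number 2 were gst-13 and gst-27, 2 of 40 members (1.46% of genes), and in number 3 gst-29, gst-35 and gst-39, 3 of 40 (0.732%). Only gsto-3, 1 of 40, was highest in number 1, below the 9.5% of all genes. Lowest in number 2 in all 5 groups were gst-22, gst-9 and gsto-3, 3 of 40, near the 6.89% of all genes. Lowest in number 3 were 0 members (0.8%). Whether the members differ from all genes in this was not tested. For gst-13 in glp-1 worms the libraries numbered 2 held 265, 263, 238 and 261 RPKM for luc, hlh-30, atg-2 and atg-18, and the libraries numbered 1 held 204, 193, 183 and 180 RPKM. The summed muscle genes were also highest in number 2 in each group, at 4871 RPKM in TU3401 and 15732 to 16668 RPKM in glp-1 worms. So were the summed hypodermis markers, at 739 RPKM in TU3401 and 2099 to 2346 RPKM in glp-1 worms. The summed pan-neuronal genes were lowest in number 2 in each group, at 949 RPKM in TU3401 and 1217 to 1265 RPKM in glp-1 worms. The labels do not say what the numbers stand for, and the part of RNA of any tissue in these differences was not tested.

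**Figure D5:**
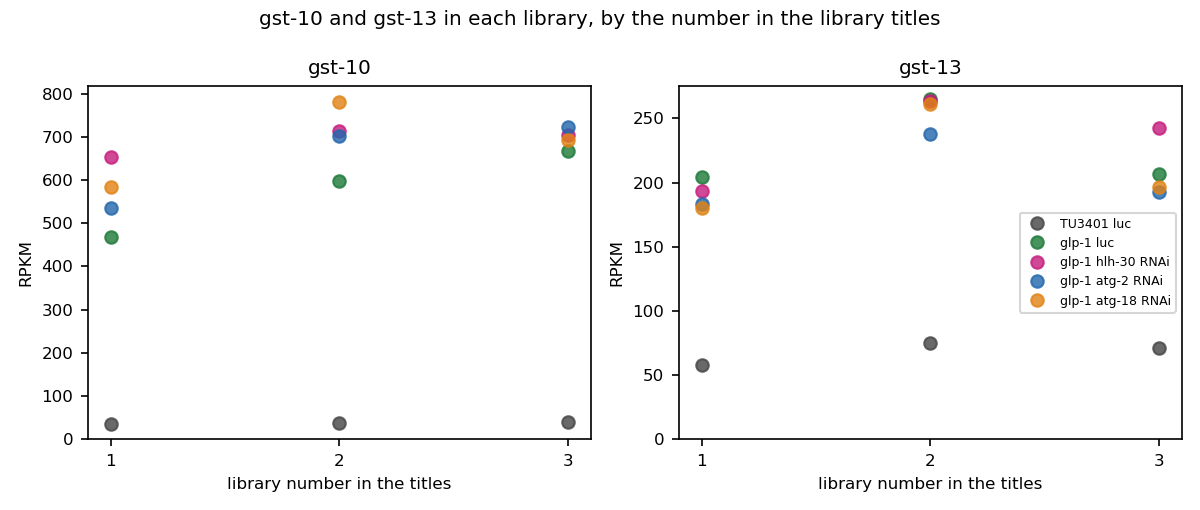
RPKM of gst-10 (left) and gst-13 (right) in each library, placed by the number in the library title and coloured by group, 1 point per library. In each of the 5 groups the library numbered 1 is the lowest for both genes, and the library numbered 2 is the highest for gst-13.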

How the data were processed

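Members and gene lists were chosen with earlier results of these data known. The authors deposited 4 tables of 42048 genes with RPKM per library, and beside them the authors' log2 fold change, p-value and false discovery rate; the glp-1 luc columns were the same in all tables (0 values differed). Per the submitters' processing notes, bcl2fastq and TopHat2 2.1.1 were used with the build GRCh38, which is a human one; the sources used here name neither annotation nor counting tool nor use of strand, so no coordinates are printed. The authors' ranking score was not used.

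RPKM values were whole multiples of 1 read per library for 1049 of 1049 genes checked (relative tolerance 1e-07), which gave depth and read numbers; 48 of 49 members had a length that is a multiple of 3, so lengths are coding lengths, of 567 to 930 bases. The design foresaw counts; the files hold RPKM, so limma 3.58.1 with a trend (R 4.3.3) was run on log2(RPKM + 1), over all genes with a mean of at least 1 RPKM in the libraries of the fit, calling Benjamini-Hochberg adjusted p under 0.05. Comparisons with luc used 6 libraries, direct contrasts the 12 glp-1 libraries. No libraries had identical values, and each counted as 1 replicate. Every reported GST gene may be named, and from each other list up to 3 called genes each way.

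Same-numbered libraries deviated together, with r over 0.1 across genes in each pair, for atg-2 RNAi with luc (0.402, 0.264 and 0.200), hlh-30 with atg-2 RNAi (0.495, 0.276 and 0.286), hlh-30 with atg-18 RNAi (0.207, 0.259 and 0.234) and atg-2 with atg-18 RNAi (0.157, 0.196 and 0.190). The main fits used group only and ignored this pairing, and the replicate block, run as an alternative, takes it into account. Alternatives were a pseudocount of 0.1 or 5, no filter, a mean of at least 5 RPKM, no trend, TMM factors, rescaling on neuronal and muscle genes, the replicate block and leaving out each library. Tests were checked on simulated data. Python 3.11.15 with pandas 2.3.3, numpy 2.4.6 and matplotlib 3.10.9 made tables and figures.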

Additional observations from a re-analysis of the deposited data

How the results depend on the processing

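For glp-1 against TU3401 the counts of 31 higher and 3 lower members moved by over 1.5 times only when rescaled on neuronal and muscle genes, to 15 and 8. Under that rescaling the log2 difference reversed to -0.33 for gst-11, -0.20 for gst-15, -0.82 for gst-16, -0.28 for gst-2, -0.24 for gst-20, -0.30 for gst-28, -0.022 for gst-31, -0.82 for gst-38, -1.41 for gst-43, -0.023 for gst-40, -0.20 for gst-9 and -0.59 for gstk-2. That of gst-43, near 0, reversed also with TMM factors (-0.091), on neuronal genes alone (-0.36) and by leaving out 1 library (-0.0372 to 0.0585), and that of gst-30 by leaving out 1 library (-0.23 to 0.13) and without all libraries numbered 1 (0.035). For hlh-30 against atg-2 RNAi the 2 higher members became 1 with no filter, 0 without a trend, 0 and 0 on both rescalings, 1 without all libraries numbered 1, 3 with the replicate block and 0 to 1 leaving out 1 library. For hlh-30 against atg-18 RNAi the 0 called became 3 higher and 3 lower with the block, 1 higher without all libraries numbered 1 and 0 to 1 higher leaving out 1 library. The block changed no count of called members in the 3 RNAi comparisons with luc (0) or between atg-2 and atg-18 RNAi (0), and for glp-1 against TU3401 it gave 32 higher. It moved the members at an unadjusted p under 0.05 from 7 to 9 for hlh-30 against luc, 4 to 8 for atg-2 and 2 to 6 for atg-18. The shares of all genes moved from 9.5% to 14.1%, 7.66% to 13.8% and 6.83% to 14.2%. The members moved from 7 to 11 for hlh-30 against atg-2, 9 to 11 for hlh-30 against atg-18 and 0 to 3 for atg-2 against atg-18. In these contrasts the shares of all genes moved from 12.5% to 21.8%, 9.99% to 16.8% and 3.14% to 8.37%. The cause of these moves was not tested. Rescaling on neuronal genes alone and leaving out all libraries numbered 1 were chosen after seeing the data. The planned count tests were not run, since the files hold RPKM. Depth limits gst-23, gst-34 and the 9 genes under 1 RPKM, with few reads per library.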
